A study of Mus musculus with 22 samples.

Results

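The Hedgehog pathway genes Shh, Ihh, Dhh, Ptch1, Smo, Gli1, Gli2, Gli3 and Hhip were followed across wild-type and Hox-/- mouse embryonic stem (mES) cells and the cultures grown from them. The 9 genes were taken by symbol from the deposited tables, which list 55141 genes, and all 9 were found. RNA-seq was available for 22 libraries in 10 groups. The groups were mES cells of either genotype (2 libraries each), endoderm differentiation cultures of either genotype (3 each), Activin A gastruloids of either genotype at 96 h and 120 h (2 each), and Chiron gastruloids of wild type alone at 96 h and 120 h (2 each). Gastruloids are balls of aggregated mES cells that pattern themselves in some of the ways an early embryo does. All cultures came from cells kept in serum with LIF at 100 ng/ml, the GSK-3 inhibitor CHIR99021 at 3 µM and the MEK1/2 inhibitor PD0325901 at 1 µM. For endoderm, Activin A at 100 ng/ml and CHIR99021 at 3 µM were given from 24 h and again at 72 h, and cells were collected at 120 h. Gastruloid doses are not in the labels. The mutant genotype is labelled Hox-/-, and the titles of the mutant libraries carry the name BADC. The count of mutant clones is not given, and the differentiated samples are described as mixed cells. Genotype and cell line thus cannot be told apart. Nothing says that replicates came from separate cultures, so the p-values measure only the spread between these libraries.

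In Hedgehog signalling, a secreted ligand (Shh, Ihh or Dhh) binds the receptor Ptch1 and lifts its block on Smo, a membrane protein that acts in the primary cilium. Active Smo turns Gli2 and Gli3 from repressors into activators, and these switch on Gli1, Ptch1 and Hhip, so that the transcripts of these genes are widely used as readouts of the pathway. Ptch1 and Hhip take up ligand and limit its range, while Gli1 amplifies the response. In the embryo Shh comes from notochord, floor plate and gut endoderm, and Ihh is an early endodermal ligand.

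In the mm10 build the genes lie at chr5:28456815-28467256 (Shh), chr1:74945315-74951672 (Ihh), chr15:98891152-98898540 (Dhh), chr13:63508328-63573598 (Ptch1), chr6:29735694-29761365 (Smo), chr10:127329882-127341974 (Gli1), chr1:118834132-119053619 (Gli2), chr13:15463235-15730026 (Gli3) and chr8:79965853-80058006 (Hhip). On the opposite strand Shh shares 446 exon bases with 9530036O11Rik and 361 with Gm26894, Gli1 shares 62 with Arhgap9 and 265 with Gm47200, Gli3 shares 188 with Gm6556 and Hhip shares 175 with Gm27820. Whether the counting used strand is not given in the sources used here, so reads in those stretches could belong to either gene. The highest level in any library was 1.65 CPM (counts scaled to the library total) for 9530036O11Rik, in wild-type Activin A gastruloids at 120 h. Within groups, its mean passed that of Shh in Chiron (0.194 against 0.0694 CPM) and Hox-/- gastruloids (0.0701 against 0.0568 CPM) at 96 h alone. The highest level of Arhgap9 was 11.1 CPM, in wild-type mES cells. Its mean passed that of Gli1 in wild-type mES cells (10.1 against 6.51 CPM) and Hox-/- ones (8.1 against 5.84 CPM). It did so too in Hox-/- gastruloids at 96 h (3.84 against 2.71 CPM), but not in Chiron gastruloids. The highest level was 3.36 CPM for Gm6556, 0.172 CPM for Gm47200 and 0 for Gm27820, and Gm26894 was not analysed here. Dhh shares 546 exon bases with Rhebl1 on its own strand and 1107 with the antisense Gm49442, and is uncertain for that reason as well as for its low counts.

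Ptch1 and Hhip are pathway targets that fell together in the Hox-/- gastruloids described below, and their promoters are shown for that reason. RefSeq promoters (GRCm38.p6) were matched for 7 of the 9 genes, all but Gli1 and Shh. The 250 bases before the start site of each are printed 5′ to 3′ in the direction of the gene, which is the minus strand for both. Capitals mark GC boxes, searched as GGGCGG on both strands.
Ptch1, chr13:63565736-63565985: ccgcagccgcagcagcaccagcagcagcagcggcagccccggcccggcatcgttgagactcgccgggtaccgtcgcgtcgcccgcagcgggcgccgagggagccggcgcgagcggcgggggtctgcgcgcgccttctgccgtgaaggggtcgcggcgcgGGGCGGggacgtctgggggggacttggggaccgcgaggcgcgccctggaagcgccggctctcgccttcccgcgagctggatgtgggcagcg
Hhip, chr8:80058009-80058258: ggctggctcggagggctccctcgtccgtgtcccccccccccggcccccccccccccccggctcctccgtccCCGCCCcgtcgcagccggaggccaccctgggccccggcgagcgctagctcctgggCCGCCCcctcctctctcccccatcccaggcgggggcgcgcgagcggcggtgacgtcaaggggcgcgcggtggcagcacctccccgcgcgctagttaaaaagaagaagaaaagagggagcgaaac
The Ptch1 window lies inside an intron of a longer transcript of the gene, holds 1 GC box and is 78.4% G and C. The Hhip window lies outside the annotated gene, holds 2 GC boxes and is 76% G and C. Windows of the same length hold a GC box in 32.7% of 32851 RefSeq mouse promoters. The Gli binding consensus GACCACCCA was searched on both strands as well, alone and without its last base; none of the 7 windows held either form, which stand in 0.225% and 0.703% of all promoters.

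Library totals ran from 9.11 to 28.8 M (mega) counts, and every gastruloid library of 96 h was deeper than every gastruloid library of 120 h, so time and depth go together in the gastruloids. With 3 counts as the floor, a library could not resolve levels under 0.104 to 0.329 CPM. As a check of the genotype, counts over 39 Hox genes were added up. Wild-type mES cells reached 33.1 ± 3.77 CPM (SD, n = 2) and mutant ones 0.896 ± 0.634 CPM. The mutant sum was also the lower in endoderm cultures (25.8 ± 3.1 against 859 ± 26.2 CPM, n = 3) and in Activin A gastruloids at 96 h (103 ± 1.02 against 643 ± 25.2 CPM, n = 2) and 120 h (66.6 ± 4.03 against 1179 ± 16.5 CPM, n = 2). Endoderm markers were present in the cultures named for endoderm, with Sox17 at 24.5 ± 0.849 CPM in wild-type and 4.89 ± 1.2 CPM in mutant cultures (n = 3). Replicates of every group differed by more than counting noise. Their mean squared difference was 10.3 times that of counting noise in Chiron gastruloids at 96 h, and 1.37 to 6.3 times in the other groups.

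Shh, Ptch1, Gli1 and Hhip had their highest means of the 10 groups in wild-type Activin A gastruloids at 120 h. In Hox-/- Activin A gastruloids of the same age all 4 were lower, from 6.59-fold for Ptch1 to 14.7-fold for Gli1 and more for Shh, while Gli3 was higher. In endoderm cultures the same 4 genes were higher in Hox-/- than in wild type, by 1.24-fold to 2.81-fold, and Ihh was lower. In mES cells only Ptch1 of the 6 genes tested differed between genotypes. The plot of every library shows these levels side by side.

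**Figure D1:**
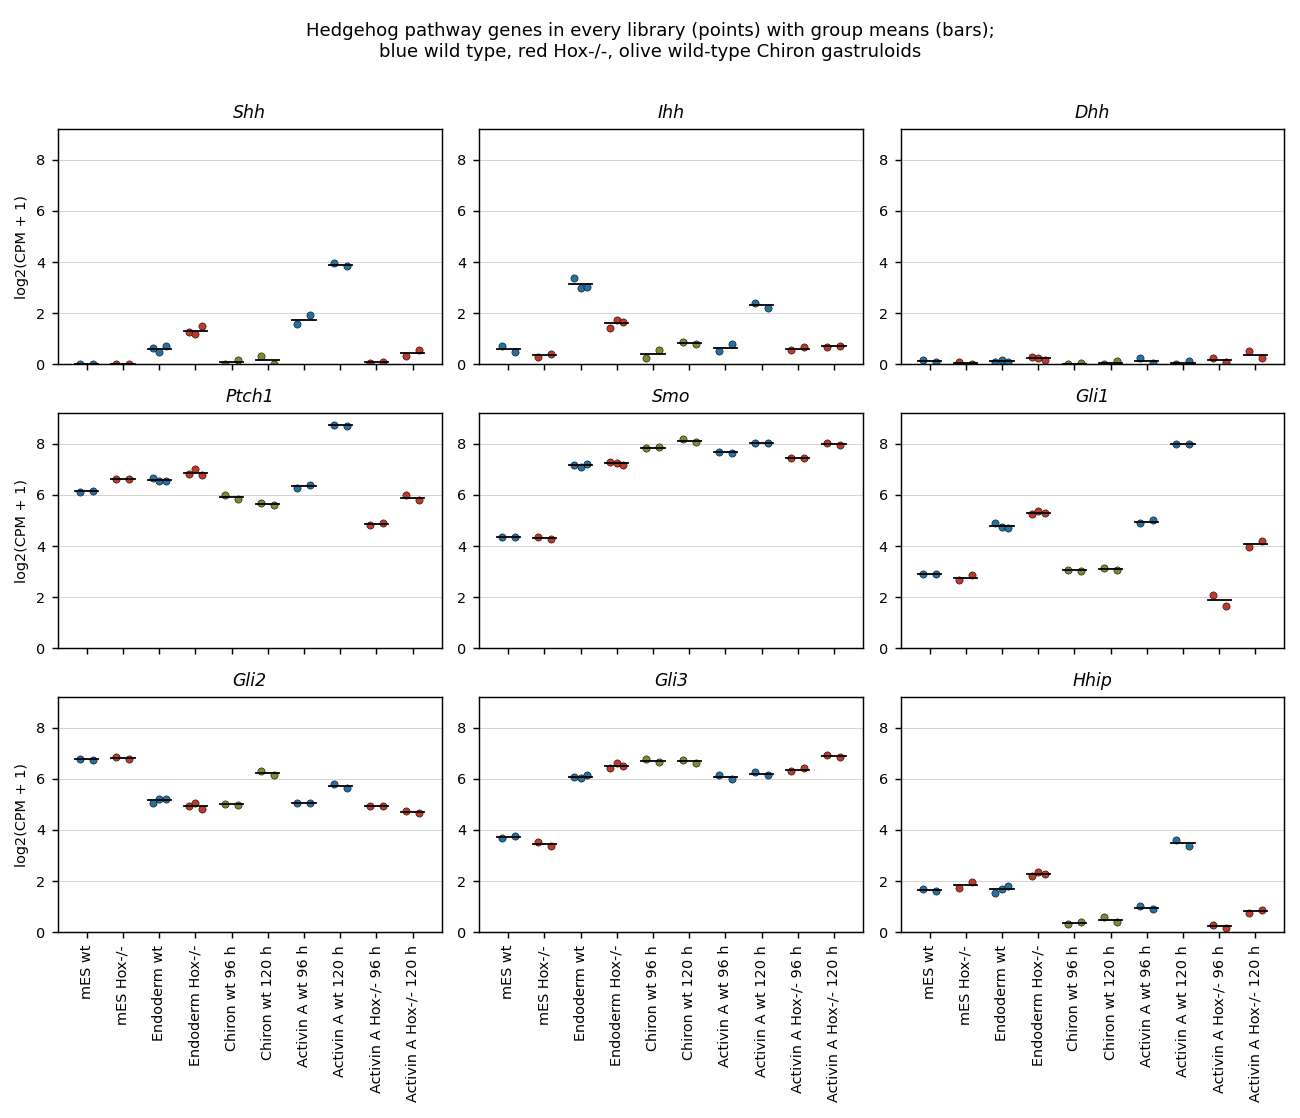
Each panel is a gene, the x axis gives the 10 groups and the y axis gives log2(CPM + 1); points are libraries and bars are group means. Shh, Ptch1, Gli1 and Hhip peak in wild-type Activin A gastruloids at 120 h (means of 13.9, 419, 254 and 10.1 CPM), whereas Smo and Gli3 are low in mES cells and high in all other groups.

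The ligand genes were scarce in most groups. Shh, the ligand of notochord and floor plate, had 0 counts in all 4 mES libraries, which allows up to 0.199 to 0.252 CPM. In wild-type Activin A gastruloids it stood at 2.00 and 2.79 CPM at 96 h and at 14.5 and 13.4 CPM at 120 h (134 and 122 counts). In Hox-/- Activin A gastruloids it stood at 0.0468 and 0.0669 CPM at 96 h, 1 count in each library, and at 0.259 and 0.468 CPM at 120 h. The genotypes did not overlap at either time. The pooled counts gave a ratio of 44 at 96 h (95% counting interval 11.9 to 368) and 38.9 at 120 h (19.4 to 91), higher in wild type; these intervals cover counting error only. The log2 fold change of Hox-/- against wild type was -5.22 ± 0.52 (SE; edgeR quasi-likelihood test, adjusted p = 6.62e-12) at 96 h and -5.14 ± 0.31 (adjusted p = 1.5e-19) at 120 h. The difference between these effects was 0.08 with a 95% interval of -0.69 to 0.85 and missed the threshold (adjusted p = 0.903); its sign turned in the FPKM-based fits.

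In endoderm cultures Shh went the other way. Wild-type libraries held 0.568, 0.396 and 0.657 CPM and Hox-/- libraries 1.42, 1.29 and 1.83 CPM, without overlap. Hox-/- was 2.81-fold higher (log2 1.49 ± 0.32, adjusted p = 0.00179). Against mES cells, where no count was seen, Shh was at least 2.5-fold higher in wild-type endoderm cultures and at least 6.35-fold higher in Hox-/- ones, computed at 3 counts per library. Chiron gastruloids held 0 and 0.139 CPM at 96 h and 0.252 and 0 CPM at 120 h, at or near the floor.

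Ihh, the endodermal ligand, was highest in wild-type endoderm cultures at 9.33, 6.99 and 7.22 CPM. The Hox-/- endoderm libraries held 1.70, 2.34 and 2.21 CPM, all below wild type, a 3.73-fold difference (log2 -1.90 ± 0.18, adjusted p = 1.11e-06). In Activin A gastruloids at 96 h the genotypes overlapped, with 0.444 and 0.736 CPM in wild type and 0.468 and 0.602 CPM in Hox-/- (95% interval of the log2 difference -0.998 to 0.72). At 120 h wild type had reached 4.32 and 3.62 CPM, while Hox-/- stood at 0.603 and 0.655 CPM, 5.8-fold lower (log2 -2.54 ± 0.38, adjusted p = 1.51e-07). The genotype effect differed between the times by -2.40 ± 0.62 (adjusted p = 0.0015). Ihh rose 6.22-fold from 96 h to 120 h in wild type (log2 2.64 ± 0.32), and its change in Hox-/- was 0.24 on the log2 scale with a 95% interval of -0.78 to 1.26. Chiron and mES libraries lay between 0.195 and 0.838 CPM, and the 6 lowest group means, from 0.280 to 0.629 CPM, did not separate from their neighbours.

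Levels per transcript length, in FPKM, allow the ligands to be set beside each other. Of the summed ligand FPKM, Shh made up 5.71 ± 1.52% in wild-type and 39.3 ± 6.24% in Hox-/- endoderm cultures (SD, n = 3), Ihh being the rest. In wild-type Activin A gastruloids the Shh share was 79.1 ± 5.74% at 96 h and 76.5 ± 3.81% at 120 h, over a sum that went from 1.03 ± 0.275 to 5.70 ± 0.367 FPKM. The sum in Hox-/- gastruloids at 120 h was 0.347 ± 0.0836 FPKM. So the ligand FPKM was mostly Ihh in endoderm cultures and mostly Shh in wild-type Activin A gastruloids.

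Dhh, the ligand of gonads and peripheral nerve, had 0 to 5 counts in every library, at most 0.431 CPM, and is listed at 0 FPKM throughout. It entered none of the 14 comparisons, for which it fell below the filter on low counts.

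Ptch1, the Hedgehog receptor and a target of the pathway, was detected in every group. Wild-type Activin A gastruloids held 77.0 and 82.1 CPM at 96 h and 426 and 411 CPM at 120 h. Hox-/- Activin A gastruloids held 27.5 and 28.6 CPM at 96 h and 62.0 and 55.5 CPM at 120 h. Each Hox-/- library was below each wild-type library of the same age. The log2 fold change was -1.45 ± 0.058 at 96 h (2.74-fold lower, adjusted p = 1.16e-26) and -2.72 ± 0.051 at 120 h (6.59-fold lower, adjusted p = 6.46e-41), and the 2 effects differed by -1.27 ± 0.082 (adjusted p = 4.1e-18). Even so, Ptch1 rose with time in Hox-/- gastruloids, 2.08-fold, against 4.99-fold in wild type.

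Ptch1 had the opposite direction outside the gastruloids. In mES cells it stood at 68.5 and 70.6 CPM in wild type and 96.3 and 97.6 CPM in Hox-/-, 1.39-fold higher (log2 0.48 ± 0.059, adjusted p = 9.04e-08; adjusted p = 0.0749 with limma on log2(FPKM + 1)). In endoderm cultures wild type held 91.5 to 100.3 CPM and Hox-/- 109 to 129 CPM, 1.24-fold higher (log2 0.31 ± 0.064, adjusted p = 0.00122). Differentiation itself moved Ptch1 little, by 0.33 in wild type and 0.18 in Hox-/- on the log2 scale; the second call was lost with DESeq2 (adjusted p = 0.0885) and without the mES_Hox replicate 1 or Endo_Hox replicate 2 library (adjusted p up to 0.101). The order of the group means ran from wild-type Activin A gastruloids at 120 h (419 CPM) through Hox-/- endoderm (117 CPM) down to Hox-/- Activin A gastruloids at 96 h (28.1 CPM); Hox-/- mES cells and wild-type endoderm, at 97 and 94.7 CPM, were neighbours whose libraries overlapped.

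Smo, the transducer that Ptch1 restrains, followed the culture type more than the genotype. The 4 mES libraries held 18.2 to 19.6 CPM, the 6 endoderm libraries 136 to 157 CPM, and the 12 gastruloid libraries 174 to 290 CPM, with no overlap between these 3 kinds of sample. Between mES cells and endoderm cultures Smo rose 6.72-fold in wild type (log2 2.75 ± 0.07) and 7.64-fold in Hox-/- (log2 2.93 ± 0.071). Of the 4 genotype comparisons, Smo was called in that of Activin A gastruloids at 96 h alone, with 204 and 201 CPM in wild type and 174 and 175 CPM in Hox-/- (log2 -0.16 ± 0.039, adjusted p = 0.000857). At 120 h the libraries held 261 and 262 CPM in wild type and 257 and 248 CPM in Hox-/-; the log2 difference was 0.06 with a 95% interval of -0.019 to 0.14, and -0.05 under scaling by total counts alone.

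Gli1, an activator that is itself a target, had the widest range of the genes seen in all groups, 93.8-fold between the highest and lowest group means. Wild-type Activin A gastruloids held 28.6 and 31.2 CPM at 96 h and 253 and 255 CPM at 120 h. Hox-/- Activin A gastruloids held 3.27 and 2.14 CPM at 96 h and 14.6 and 17.5 CPM at 120 h. No Hox-/- library came near a wild-type library of its age. Gli1 was 10.3-fold lower at 96 h (log2 -3.36 ± 0.12, adjusted p = 2.97e-29) and 14.7-fold lower at 120 h (log2 -3.88 ± 0.071, adjusted p = 2.53e-41).

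Gli1 rose with time in both genotypes, 8.05-fold in wild type and 5.62-fold in Hox-/-. The difference of these changes, -0.52 ± 0.18, passed the threshold (adjusted p = 0.0211) but was lost with no filter on low counts (0.0668) and with limma on log2(FPKM + 0.1) (0.141). It ran from -0.74 to -0.13 as each library was left out, and was lost without replicate 1 of wild type at 96 h, of Hox-/- at 96 h or of Hox-/- at 120 h. In endoderm cultures wild type held 28.6, 25.5 and 24.9 CPM and Hox-/- 36.6, 40.7 and 38.4 CPM, 1.47-fold higher (log2 0.56 ± 0.073, adjusted p = 2.55e-05). In mES cells the values were 6.57 and 6.45 CPM in wild type and 5.45 and 6.22 CPM in Hox-/-, with a log2 difference of -0.17 (95% interval -0.50 to 0.17). Gli1 rose from mES cells to endoderm cultures by 1.89 in wild type and 2.65 in Hox-/- on the log2 scale, and that difference of 0.75 ± 0.17 was called (adjusted p = 0.00301). Arhgap9, which shares exon bases with Gli1, held 5.56 ± 0.832 CPM (SD, n = 2) in wild-type and 1.57 ± 0.1 CPM in Hox-/- gastruloids at 120 h.

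**Figure D2:**
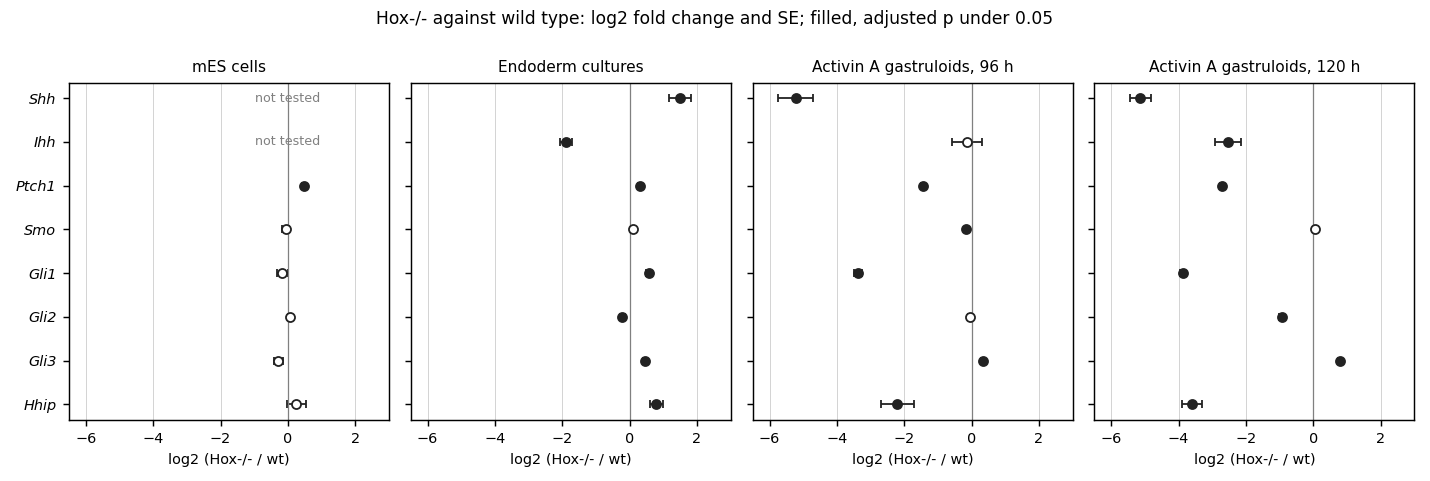
Log2 fold change of Hox-/- against wild type (x axis) for 8 genes (y axis) in 4 kinds of sample; bars are SE and filled points passed an adjusted p of 0.05. Shh, Ptch1, Gli1 and Hhip lie left of 0 in Activin A gastruloids and right of 0 in endoderm cultures; in the gastruloid panels Gli3 lies right of 0.

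Gli2, the main activator, was the member most abundant in mES cells relative to other groups. Wild-type mES libraries held 108 and 107 CPM and Hox-/- libraries 116 and 109 CPM, above all other libraries. Endoderm cultures fell to 32.6, 35.9 and 36.3 CPM in wild type and 29.5, 32.4 and 27.5 CPM in Hox-/-. The genotype difference in endoderm was small (log2 -0.22 ± 0.076, adjusted p = 0.0272). It was lost with DESeq2 (adjusted p = 0.0731), in both FPKM-based fits (0.114 and 0.0912), after thinning to equal depth (0.0818), and without any of Endo_wt replicate 2 or 3 or Endo_Hox replicate 1 or 3 (adjusted p up to 0.116). In Activin A gastruloids the libraries of both genotypes held 29.6 to 31.9 CPM at 96 h (95% interval of the log2 difference -0.18 to 0.079), whereas at 120 h wild type held 54.6 and 49.5 CPM and Hox-/- 25.6 and 24.5 CPM, 1.92-fold lower (log2 -0.94 ± 0.081, adjusted p = 3.08e-14). The genotype effects at the 2 times differed by -0.89 ± 0.1 (adjusted p = 9.51e-10). Gli2 rose 1.55-fold with time in wild type and fell 1.2-fold in Hox-/-, the latter lost in both FPKM-based fits (adjusted p = 0.0737 and 0.0587) and without ActA_Hox_120h replicate 2 (0.0554).

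Gli3, in its processed form the main repressor, was the member that was higher in Hox-/- gastruloids. At 96 h wild type held 69.8 and 62.2 CPM and Hox-/- 77.4 and 84.9 CPM (log2 0.35 ± 0.053, adjusted p = 4.86e-07; adjusted p = 0.143 and 0.118 in the FPKM-based fits). At 120 h wild type held 74.9 and 70.6 CPM and Hox-/- 121 and 113 CPM, 1.74-fold higher (log2 0.80 ± 0.062, adjusted p = 9.57e-16). The genotypes did not overlap at either time, and the effects differed by 0.45 ± 0.082 (adjusted p = 1.3e-05). Endoderm cultures also had more Gli3 in Hox-/-, with 85.7, 97.9 and 88.3 CPM against 65.4, 65.3 and 70.6 CPM (log2 0.44 ± 0.061, adjusted p = 4.61e-05). In mES cells Gli3 was low, at 11.8 and 12.6 CPM in wild type and 10.7 and 9.33 CPM in Hox-/-, and the genotypes did not differ past the threshold (adjusted p = 0.12). Its rise on differentiation was 2.34 in wild type and 3.09 in Hox-/- on the log2 scale, a difference of 0.75 ± 0.14 (adjusted p = 0.000505).

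The balance of the 3 Gli factors, as shares of their summed FPKM, set wild-type Activin A gastruloids at 120 h apart from the other groups. Gli1 made up 77 ± 1.21% of the sum there and 17.2 ± 2.52% in Hox-/- (SD, n = 2). At 96 h the Gli1 shares were 34.1 ± 2.85% and 4.13 ± 1.13%. Gli3 was the largest share in Hox-/- Activin A gastruloids, 67.4 ± 1.89% at 96 h and 66.2 ± 2.24% at 120 h. In mES cells Gli2 made up 83.6 ± 1.14% in wild type and 86.1 ± 0.239% in Hox-/-. The Gli1 to Gli3 ratio in FPKM was 5.84 and 6.42 in the wild-type libraries at 120 h, 0.227 and 0.293 in the Hox-/- libraries, and 0.127 to 0.137 across the Chiron libraries.

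**Figure D3:**
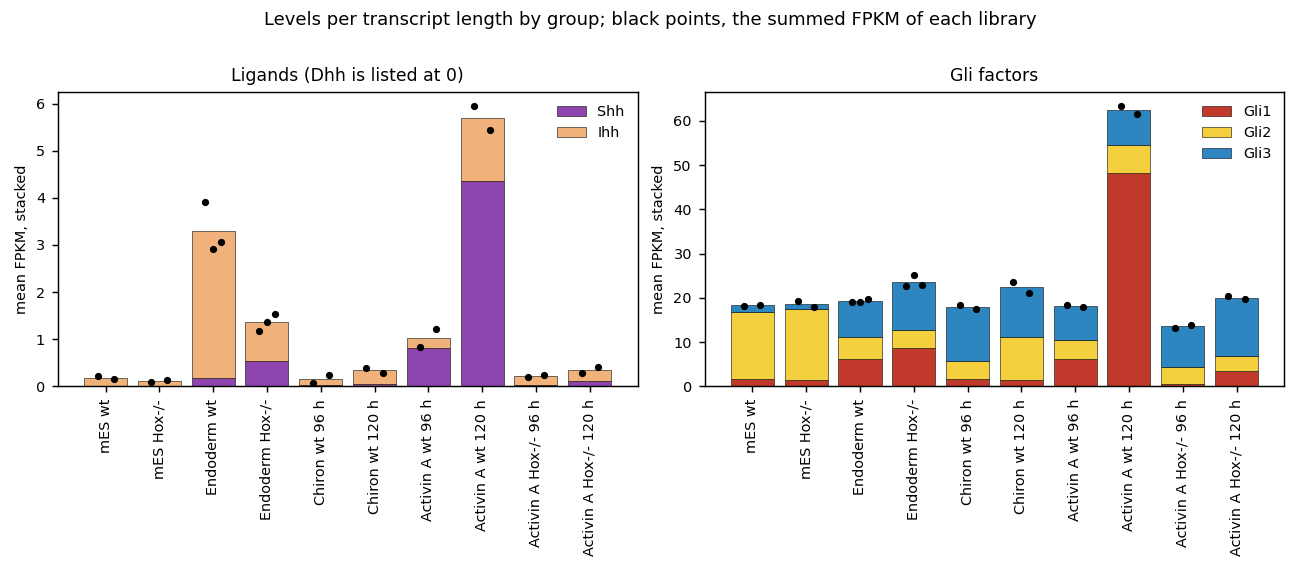
Stacked bars give the mean FPKM of the ligand genes (left) and the Gli factors (right) in the 10 groups, and black points the summed FPKM of each library. Wild-type Activin A gastruloids at 120 h reach 62.5 FPKM for the Gli factors, most of it Gli1, while the other 9 groups lie between 13.6 and 23.6 FPKM.

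Hhip, a membrane protein that binds and sequesters ligand, was low but followed Ptch1. Wild-type Activin A gastruloids held 1.02 and 0.891 CPM at 96 h and 11.03 and 9.22 CPM at 120 h, and Hox-/- held 0.234 and 0.134 CPM at 96 h and 0.690 and 0.842 CPM at 120 h. The genotypes did not overlap at either time. At 120 h Hhip was 12.2-fold lower in Hox-/- (log2 -3.61 ± 0.29, adjusted p = 2.8e-15). At 96 h, where a Hox-/- library had 3 counts or fewer, the pooled ratio was 4.94 (95% counting interval 2.22 to 13; adjusted p = 0.000282, and 0.139 with limma on log2(FPKM + 1)). In endoderm cultures Hhip was higher in Hox-/-, 3.64, 4.06 and 3.84 CPM against 1.87, 2.24 and 2.55 CPM (log2 0.79 ± 0.19, adjusted p = 0.00364). In mES cells the values were 2.26 and 2.10 CPM in wild type and 2.32 and 2.94 CPM in Hox-/-, with a log2 difference of 0.25 (95% interval -0.28 to 0.79).

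Counted over the pathway genes, 7 of 8 tested were called in Activin A gastruloids at 120 h, 6 lower in Hox-/- and Gli3 higher. Of all genes tested there, 50.4% were called, 25.5% lower and 24.9% higher. The median log2 fold change of the pathway genes was -2.63 beside -0.02 over all genes. At 96 h 6 of 8 were called, 5 of them lower, where 38.9% of all genes were called (16.7% lower, 22.2% higher); the median was -0.81 beside 0.03. In endoderm cultures 7 of 8 were called, 5 of them higher, where 46.2% of all genes were called (23.1% in each direction); the median was 0.37 beside 0.0017. In mES cells 1 of 6 was called, higher, where 23.2% of all genes were (12.4% higher, 10.8% lower). Among all genes called in the gastruloids, 49.4% were higher in Hox-/- at 120 h and 57% at 96 h; scaling by total counts alone gave 34.6% and 42.5%, and the directions of the called pathway genes were the same under it.

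Over time, wild-type Activin A gastruloids raised 7 of the 8 tested genes between 96 h and 120 h (74.9% of all genes called, 37.2% higher and 37.8% lower): Hhip 10-fold, Gli1 8.05-fold, Ihh 6.22-fold, Shh 5.46-fold, Ptch1 4.99-fold, Gli2 1.55-fold and Smo 1.23-fold. Gli3 changed by 0.07 on the log2 scale (95% interval -0.051 to 0.19; adjusted p = 0.31 as tested, and 0.031 under total counts alone). In Hox-/- gastruloids 7 of 8 were called as well, 6 higher and Gli2 lower (72.4% of all genes, 34.9% higher and 37.6% lower). Gli3 and Smo rose 1.43-fold each there. Shh rose from 1 count per library to 3 and 5 counts, a ratio of 6.52 (95% counting interval 1.3 to 63), and that call was lost without ActA_Hox_96h replicate 1 or ActA_Hox_120h replicate 2 (adjusted p up to 0.141) and in the FPKM-based fits (0.271 and 0.11). The change of the genotype effect between the times was called for 6 of 8 genes, above 0 for Smo and Gli3 and below 0 for Ihh, Ptch1, Gli1 and Gli2. Of all genes 38.9% were called, 18.7% above and 20.2% below 0; the former were 48% of the calls, or 38.8% under total counts alone.

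Wild-type Activin A gastruloids were also set against wild-type Chiron gastruloids of the same age. At 120 h wild-type Activin A gastruloids had more Gli1, 253 and 255 CPM against 7.88 and 7.42 CPM, 31.9-fold (log2 5.00 ± 0.086, adjusted p = 1.64e-22). Ptch1 was 8.15-fold higher (426 and 411 CPM against 50.8 and 48.1 CPM), Ihh 4.79-fold higher, Hhip higher by a pooled ratio of 24.1 (95% counting interval 12.4 to 53.4), and Shh by 99.3 (33.6 to 485). All 3 Chiron counts of Shh at 120 h came from Chi_wt_120h replicate 1, and the log2 fold change of 6.51 was 5.69 without replicate 2; without replicate 1 Chiron was at 0, and the fitted 10.86 is then no measure of size. Gli2 and Gli3 were lower, 1.49-fold and 1.45-fold, as Chiron gastruloids held 79.0 and 70.3 CPM of Gli2 and 105 and 98.5 CPM of Gli3. All 8 genes tested were called, 5 higher and 3 lower, where 41.9% of all genes were (20.3% higher, 21.6% lower).

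Smo was the least certain of these. It was 1.1-fold lower (262 CPM in both Activin A libraries, 290 and 266 CPM in Chiron; log2 -0.14 ± 0.052, adjusted p = 0.0313), and the call was lost in 8 of the other fits (adjusted p up to 0.171) and without Chi_wt_120h replicate 1 or any of the 4 wild-type Activin A libraries (up to 0.392). At 96 h 6 of 8 genes were called (61.6% of all genes, 31.3% higher and 30.2% lower): Shh, with a pooled ratio of 29.9 (11.4 to 112) over 4 Chiron counts that all came from Chi_wt_96h replicate 2, Gli1 3.93-fold, Hhip 3.17-fold and Ptch1 1.29-fold were higher with Activin A, and Gli3 1.63-fold and Smo 1.19-fold lower. The log2 fold change of Shh at 96 h, 4.72, was 4.03 without Chi_wt_96h replicate 1 and 8.25 without replicate 2, which leaves Chiron at 0. The Hhip call at 96 h was lost after thinning (adjusted p = 0.187) and with limma on log2(FPKM + 1) (0.108). The treatment effect grew with time for Gli1 by 3.02 ± 0.14, for Hhip by 2.85 ± 0.64 and for Ptch1 by 2.66 ± 0.087 on the log2 scale. It was called for 5 of 8 genes, 4 above 0 and Gli2 below (39.6% of all genes, 21.7% above and 18% below). Shh (1.79) was not called with edgeR but was in the FPKM-based fits (1.55, adjusted p = 0.00107 with limma on log2(FPKM + 1), and 2.16, adjusted p = 0.029 with a pseudocount of 0.1). The pseudocounts of 1 and 0.1 stand beside Chiron Shh values of 0 to 0.0815 FPKM, so those FPKM-based values are no measure of size. With edgeR the Shh value ran from -1.73 to 6.14 as each library was left out. Chiron gastruloids themselves changed few of the pathway genes with time (3 of 8, beside 61.7% of all genes, 28.5% higher and 33.2% lower): Gli2 rose 2.25-fold, Smo rose 1.13-fold and Ptch1 fell 1.28-fold. The Smo call was lost without Chi_wt_120h replicate 1 (adjusted p = 0.212), and leaving out Chi_wt_96h replicate 2 raised the count to 5 by adding Ihh (adjusted p = 0.0245) and Gli3 (0.0485). These comparisons share the wild-type Activin A libraries with the genotype comparisons above.

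**Figure D4:**
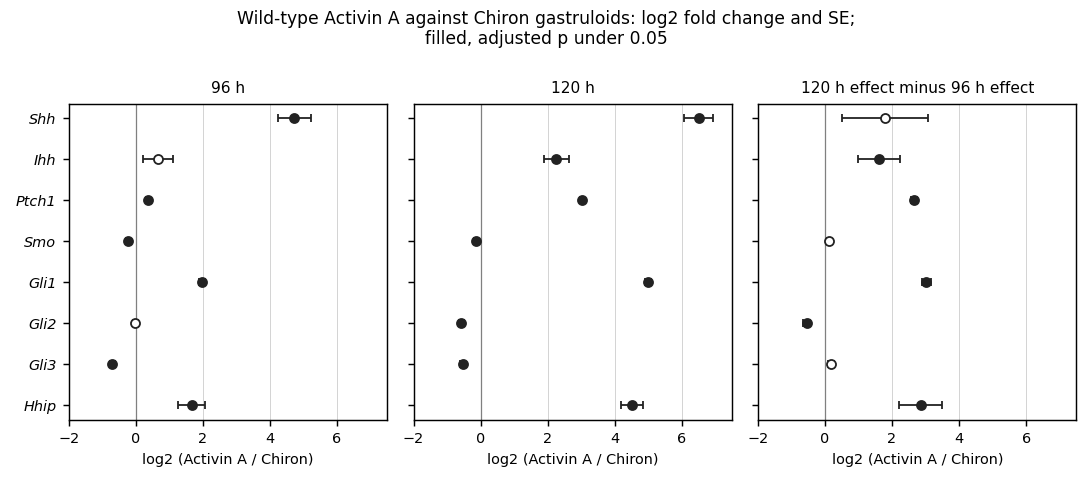
Log2 fold change of wild-type Activin A against Chiron gastruloids (x axis) for 8 genes (y axis) at 96 h, at 120 h, and the difference between these; bars are SE and filled points passed an adjusted p of 0.05. Gli1 moves from 1.98 at 96 h to 5.00 at 120 h and Ptch1 from 0.36 to 3.03, while Gli2 moves from near 0 to -0.58.

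Differentiation from mES cells to endoderm cultures changed 7 of 8 tested genes in wild type, 6 higher, where 79.9% of all genes were called (41.6% higher, 38.3% lower). In Hox-/- it changed 8 of 8, 7 higher, where 80.6% were called (42.7% higher, 37.9% lower). Smo, Gli3, Ihh and Gli1 rose in both genotypes and Gli2 fell, 3.33-fold in wild type and 3.99-fold in Hox-/-. Hhip passed only in Hox-/- (log2 0.47 ± 0.21, adjusted p = 0.0456), a call lost in 6 other fits and in 6 of 10 fits that left out a library (adjusted p up to 0.336); its difference between the genotypes was 0.56 with a 95% interval of -0.065 to 1.18. The change of the genotype effect was called for 2 of 8 genes, Gli1 and Gli3, both above 0 (24.1% of all genes, 11.6% above and 12.5% below). Gli2 (-0.26, adjusted p = 0.0564) was called too, below 0, with RLE size factors (0.043), total counts alone (0.032), at least 10 counts in every library (0.0362), and without Endo_wt replicate 1 or Endo_Hox replicate 2 (down to 0.0182).

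The other pathway genes were described from 5 lists. Among 22 reported Hedgehog targets, 20 were tested in Activin A gastruloids at 120 h; 10 were lower and 6 higher in Hox-/-, beside 25.5% and 24.9% of all genes, with a median log2 fold change of -0.36. The ventral neural regulator Olig2 was lower by a pooled ratio of 44.9 (95% counting interval 18.9 to 140) and Foxa2, a regulator of notochord, floor plate and endoderm, was lower at 1.93 ± 0.0794 against 63.1 ± 2.62 CPM (SD, n = 2). Hand2 and Pax1 were lower too, with at most 1 count in a Hox-/- library. Foxf1, a splanchnic mesoderm regulator, was higher (31.8 ± 0.451 against 15 ± 0.99 CPM), as were Foxc2 (215 ± 4.55 against 98.7 ± 5.46 CPM), Cdk6 and Foxl1. At 96 h 4 of 20 were lower and 3 higher, 7 called in all and so no larger a share than the 38.9% of all genes, with Foxa2 at 9.6 ± 0.0486 against 80.8 ± 7.15 CPM. In endoderm cultures, where 46.2% of all genes were called, 6 of 15 were higher, led by Foxf2 (16.2 ± 1.71 against 5.97 ± 0.0881 CPM, n = 3), and 4 lower, led by Pax9 and Foxa2 (4.18 ± 1.22 against 18.6 ± 1.2 CPM). The targets of the list thus did not move as a block in either setting.

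Of the genes for ligand processing and release, the glypican gene Gpc4 was lower in Hox-/- gastruloids at both times, 7.85 ± 0.00782 against 35.5 ± 1.86 CPM at 120 h. Of the 8 genes tested in this list, 3 were lower and 2 higher at 120 h (50.4% of all genes called), and 4 were lower at 96 h (38.9%). In endoderm cultures 2 were higher and 3 lower of 8 (46.2%), led by Scube3, a secreted protein that helps to release ligand (108 ± 3.07 against 37.5 ± 1.47 CPM). Among the 4 coreceptors, Boc, Lrp2 and Cdon were lower and Gas1 higher in Hox-/- gastruloids at 120 h; Boc stood at 73.4 ± 1.8 against 122 ± 3.58 CPM. At 96 h 2 of the 4 were higher in Hox-/- and 0 lower: Cdon (87 ± 1.75 against 66.8 ± 3.15 CPM) and Lrp2 (21 ± 2.33 against 12.8 ± 0.383 CPM) were thus on opposite sides at the 2 times. Cdon was higher in Hox-/- endoderm cultures (103 ± 5.41 against 41.4 ± 1.03 CPM) and in Hox-/- mES cells (23 ± 1.63 against 11.6 ± 2.25 CPM).

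Of 14 genes for signal transduction and Gli regulation, 11 were higher and 0 lower in Hox-/- gastruloids at 120 h, 5 higher and 4 lower at 96 h, 8 higher and 1 lower in endoderm cultures, and 2 higher and 2 lower in mES cells. Of all genes, 24.9% were higher and 25.5% lower at 120 h, 22.2% and 16.7% at 96 h, 23.1% and 23.1% in endoderm cultures, and 12.4% and 10.8% in mES cells. The kinase gene Csnk1a1 was higher in Hox-/- in all 4 genotype comparisons, by 0.57, 0.72, 0.74 and 0.66 on the log2 scale in mES cells, endoderm cultures and gastruloids at 96 h and 120 h. The ciliary kinesin gene Kif7 was also higher in each, by 0.58, 0.59, 0.33 and 0.66. By counts, these 2 genes were thus higher before any differentiation. Kif7 was listed at 0 FPKM in every mES library, though it held 178 to 287 counts there, so the FPKM values do not show its difference in mES cells. Zic2, a factor that can bind Gli proteins, changed sides, being higher in Hox-/- at 120 h (231 ± 3.52 against 98.4 ± 0.00626 CPM) but at 96 h the lower (123 ± 1.42 against 166 ± 3.06 CPM). Of 12 primary cilium genes, 4 were higher and 2 lower at 120 h, with Kif3a at 48 ± 0.471 against 36 ± 1.01 CPM, and 3 were lower at 96 h; the shares called are near the 50.4% of all genes at 120 h and below the 38.9% at 96 h.

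Markers of some of the cell types that make or receive Hedgehog ligand moved with these results. In Activin A gastruloids at 120 h, where 25.5% of all genes were lower and 24.9% higher in Hox-/-, all 10 definitive endoderm markers were lower. Their sum was 1048 to 1053 CPM in wild type and 84.2 to 85.7 CPM in Hox-/-, with none at the floor. All 7 notochord and node markers, a list that holds Shh itself, were lower, with sums of 466 to 471 CPM and 174 to 181 CPM, and Noto was at 0 in Hox-/- and at 13.5 and 15.5 CPM in wild type. The floor plate and ventral neural sum was 114 to 115 CPM in wild type and 8.1 to 9.54 CPM in Hox-/-. Nkx2-2, Olig2 and Dbx1 were at the floor in Hox-/-, and all 6 markers tested were lower. Foxa2 is in this list and in those of endoderm and of notochord and node, so these lists are not independent. The presomitic mesoderm sum was 160 to 164 CPM in wild type and 872 to 876 CPM in Hox-/-. Markers of other ligand-receiving tissues had no common direction. Of 5 sclerotome and somite markers tested 2 were higher and 2 lower (sums of 351 to 357 CPM in wild type and 416 to 422 CPM in Hox-/-). Of 6 lateral and splanchnic mesoderm markers 2 were higher and 2 lower (60.7 to 63.8 and 69.9 to 70.7 CPM). With so few markers, these counts cannot be told from the 50.4% of all genes called. At 96 h 9 of 10 endoderm markers and 6 of 7 notochord and node markers were lower in Hox-/-, beside 16.7% of all genes. The endoderm sums were 1226 to 1361 CPM in wild type and 599 to 617 CPM in Hox-/-. Of 6 floor plate and ventral neural markers tested at 96 h, 1 was lower and 1 higher. Their sums were 77.94 to 87.85 CPM in wild type and 14.59 to 16.25 CPM in Hox-/-. Foxa2, whose levels are given above, made up most of that sum in both genotypes. Apart from Foxa2, the mean of the list was not lower in Hox-/- at 96 h. The notochord sum was then higher in Hox-/-, 2131 to 2166 against 1896 to 1944 CPM, and was mostly T, a gene of all early mesoderm. In these bulk samples fewer cells of a type and less RNA per cell cannot be told apart, and the part of cell composition in the changes of the pathway genes was not tested.

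In endoderm cultures some marker lists moved as in the gastruloids and others did not. All 10 endoderm markers were lower in Hox-/-, beside 23.1% of all genes (sums of 1141 to 1142 CPM in wild type and 695 to 750 CPM in Hox-/-). The same list summed to 628 to 631 CPM in wild-type and 649 to 661 CPM in Hox-/- mES cells, where Foxa1, Foxa2 and Cer1 were at the floor. Ihh was lower as well, as the endoderm markers were, while Shh, Gli1, Ptch1 and Hhip were higher. The notochord and node sum was 206 to 230 CPM in wild type and 270 to 290 CPM in Hox-/-, with 3 markers higher (Shh, Nog and T), 3 lower (Foxa2, Foxj1 and Chrd) and Noto at 0 in Hox-/-. The floor plate and ventral neural sum was lower in Hox-/- here too (5.8 to 7.32 against 19.19 to 22.23 CPM). Most of it was Foxa2 in both genotypes, and apart from Foxa2 the mean of the list was not lower in Hox-/-. At the floor were 4 of its 8 genes in wild type and 5 in Hox-/-. Of its 2 markers tested, 1 was higher and 1 lower. The sclerotome and somite sum (9.78 to 10.91 against 25.23 to 28.16 CPM) was also lower in Hox-/-. So was the presomitic mesoderm sum (30.55 to 33.28 against 46.69 to 59.14 CPM). The lateral and splanchnic mesoderm sums overlapped, 269 to 298 CPM and 279 to 301 CPM. The pluripotency sum was 794 to 920 CPM in wild type and 250 to 268 CPM in Hox-/-, and its part in the result was not tested.

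Over the 10 group means, 13272 genes with a group mean of at least 5 CPM were ranked by likeness to Gli1 and to Shh. Genes with predicted Gm or Rik names were ranked but not named. Among the others, the genes most like Gli1 in pattern were Atp8a2 (Pearson r = 0.944 on log2(CPM + 1)), Shh (0.942), Abtb2 (0.939), the keratin gene Krt7 (0.912) and the secreted chaperone gene Clu (0.904). For Shh they were Fam107a (0.966), Spdef (0.949), the neurotrophin receptor gene Ntrk2 (0.942), Gli1 (0.942) and Upk3a (0.939). All of these had their highest mean in wild-type Activin A gastruloids at 120 h. Within the pathway, Smo and Gli3 were most alike (r = 0.974), followed by Shh and Gli1 and by Ptch1 and Hhip (0.935). The points share libraries and depth, a few high groups set such values, and they are given as descriptions.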

How the data were processed

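RNA-seq libraries were prepared from poly(A) RNA with the TruSeq Stranded mRNA kit, as the labels' protocols state. The submitters' processing notes name cutadapt 1.16, STAR 2.7.7a, Cufflinks 2.2.1 and the mm10 build, without their roles; the counting tool and its strand setting are not given in the sources used here. The deposited count tables give raw whole-number counts for each Ensembl gene in each library. The deposited FPKM tables give the same genes and libraries scaled by transcript length and library size, with symbols and positions. The 4 libraries present in 2 tables were identical in both, and 86 gene rows were missing from some table. Such rows were left out of the fits that used that table and of the search for genes like Gli1 and Shh.

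Groups came from the labels. CPM values are counts scaled to the library total in the usual way. Differences were tested with edgeR 4.0.16 (R 4.3.3): filterByExpr, TMM scaling, a coefficient per group, the quasi-likelihood test, and Benjamini-Hochberg adjustment over all genes tested; an adjusted p under 0.05 is a call, and SE is derived from the F statistic. The 14 contrasts came from 5 fits: mES cells, endoderm cultures, Activin A gastruloids, wild-type gastruloids, and mES cells with endoderm cultures. Intervals of fold changes are at 95%; pooled-count ratios have exact 95% intervals. The script was tested on simulated counts. The alternatives were RLE size factors, total counts alone, no filter, at least 10 counts in every library, the replicate number as a block, thinning to the smallest library, DESeq2 1.42.0, limma 3.58.1 on log2 FPKM, with a pseudocount of 1 over the genes edgeR tested or of 0.1 over genes with FPKM 1 or more in 2 libraries, fits on only the 2 groups compared, TMM library sizes for levels, and each library left out in turn. Named genes are all 9 pathway genes and further genes of a list with the marker sums. Up to 4 called genes per list and direction, with the largest change and a group mean of at least 1 CPM, are named too. So are the 5 genes most like Gli1 and Shh, with Gm and Rik names left out. The pathway genes, lists and tests were chosen with earlier results of these data known. Single values of some genes of these lists are not reported here.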

Additional observations from a re-analysis of the deposited data

Results flagged for a closer look

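Tests of the difference between 2 effects passed the adjusted p of 0.05 in edgeR for the pathway genes that follow, in log2 units. The genotype effect in Activin A gastruloids was larger in size at 120 h than at 96 h, with the difference below 0, for Ihh (-2.40), Ptch1 (-1.27), Gli2 (-0.89) and Gli1 (-0.52), and the difference was above 0 for Gli3 (0.45) and Smo (0.22). The effect of Activin A against Chiron was higher at 120 h than at 96 h for Gli1 (3.02), Hhip (2.85), Ptch1 (2.66) and Ihh (1.61), and lower for Gli2 (-0.55). The genotype effect was higher in endoderm cultures than in mES cells for Gli1 (0.75) and Gli3 (0.75). The Ihh difference between treatments (adjusted p = 0.0454) was lost in 6 of 8 fits that left out a library, all but those without Chi_wt_96h replicate 1 or ActA_wt_96h replicate 2, where it ran from 0.72 to 2.02. It was lost too with the replicate block (adjusted p = 0.0508), with DESeq2 (0.182) and with limma on log2(FPKM + 0.1) (0.117). The Gli1 difference between genotypes over time was lost with no filter (adjusted p = 0.0668), with limma on log2(FPKM + 0.1) (0.141) and in 3 of 8 fits that left out a library (ActA_wt_96h, ActA_Hox_96h or ActA_Hox_120h replicate 1), where all 8 ran from -0.74 to -0.13.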

How the results depend on the processing

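Over all alternatives other than leaving out a library, 901 of 956 effects of the pathway genes kept their direction and side of the threshold, 35 lost a call, 8 gained one and 12 changed sign; with a library left out the counts were 826 of 878, 30, 4 and 18. The count of pathway genes called moved with the filter of at least 10 counts in every library, which removes the scarce genes: from 7 to 4 for the genotype at 120 h and for time in wild-type Activin A gastruloids, from 8 to 4 for treatment at 120 h and from 5 to 3 for its change with time. With limma on FPKM it moved from 1 to 0 in mES cells (log2(FPKM + 1)) and from 7 to 4 in endoderm cultures (log2(FPKM + 0.1)). It moved from 7 to 4 for time in Hox-/- gastruloids in both fits. With the pseudocount of 0.1, genes needed FPKM 1 or more in 2 libraries. Shh (at most 0.675 FPKM) and Hhip (at most 0.412 FPKM) missed that in endoderm cultures, as did Hhip in Activin A gastruloids. The other genes lost stayed in the fits but missed the threshold, and why was not tested. Leaving out a library gave 2 to 5 for time in Chiron gastruloids, 6 to 7 for endoderm cultures, 5 to 7 for time in Hox-/- gastruloids, 7 to 8 for treatment at 120 h and 6 to 8 for differentiation in Hox-/-.

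The effects that changed sign were near 0 or from few counts. For Shh, the change of the genotype effect with time was 0.08 with edgeR, from 1 to 5 counts per Hox-/- library. It was -1.46 (adjusted p = 0.00110) and -1.65 (adjusted p = 0.0370) with limma on log2(FPKM + 1) and log2(FPKM + 0.1). Those pseudocounts stand beside Hox-/- Shh values of 0.0224 to 0.154 FPKM, so these 2 values are no measure of size. Total counts alone gave -0.049 for Smo by genotype at 120 h, 0.040 for Gli2 by treatment at 96 h, 0.077 for Gli1 over time in Chiron and 0.031 for Hhip on differentiation in wild type. Gli2 by treatment at 96 h was 0.00025 with no filter, 0.013 with at least 10 counts, and 0.025 and 0.030 with limma. Thinning gave -0.14 for Ihh over time in Hox-/- gastruloids and -0.048 for Ihh by treatment at 96 h.

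With a library left out, sign changes came within these ranges: Ihh by genotype at 96 h -0.44 to 0.28, Gli3 over time in wild type -0.017 to 0.15, Shh for genotype by time -0.37 to 0.46, Gli2 by treatment at 96 h -0.034 to 0.018, Shh over time in Chiron -3.71 to 4.18, Gli1 over time in Chiron -0.098 to 0.024, Shh for treatment by time -1.73 to 6.14, and Hhip on differentiation in wild type -0.19 to 0.021.

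Over all genes, calls moved by more than 1.5 times in 4 comparisons: genotype in mES cells (3168, with 954 by DESeq2, 52 and 372 by limma, and 1477 and 1690 without mES_wt replicate 1 or 2), genotype at 96 h (6546, with 3195, 3078 and 2787), its change with time (6544, with 4125 and 4264) and treatment at 96 h (10655, with 6670). Total counts alone moved the median of all genes from -0.02 to -0.13 at 120 h between genotypes, from -0.04 to 0.06 over time in Chiron, and from 0.07 to 0.18 on differentiation in wild type. TMM sizes moved 11 of 90 group means by more than their SD, by factors of 0.947 to 1.06.

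No clear pairing of the libraries by replicate number was seen. Same-numbered libraries correlated between -0.226 and 0.206 in their deviations from group means, and 2 of 6 endoderm libraries correlated best with their own number. In groups of 2 libraries the deviations mirror each other and give a single value per comparison, so this check could not settle whether libraries were paired. With the replicate number as a block, 107 of 109 effects were the same; the lost calls were Ihh in the change of the treatment effect (1.59, adjusted p = 0.0508) and Hhip on differentiation in Hox-/- (0.43, adjusted p = 0.0901). Counting noise limits Shh, Ihh, Dhh and Hhip in groups near 3 counts. FPKM fits across the mES and endoderm tables were not run.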
